A study of Mus musculus with 15 samples.

Results

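Interferon-stimulated genes are the genes that cells switch on when they meet interferon, and 37 of them were followed here across muscle stem cells and skeletal muscle of mice. The 37 were chosen by symbol, with earlier results of these data known, as a list of well-known members of this response. All were found among the 56953 genes of the tables. The study measured RNA by bulk sequencing in 15 libraries, to see how giving a mouse its own muscle stem cells back (MuSCs, also called satellite cells, from which muscle regenerates) bears on the MuSCs left in place and on hindlimb muscle. MuSC libraries came from 3 mice (numbers 5, 6 and 11) after transplantation, from an area that had received no cells, and from mice of the same 3 numbers before it. Quadriceps femoris muscle came from 6 transplanted mice (4, 14, 94, 5, 6 and 11) and from 3 sham-operated mice (3, 192 and 12). All mice are labelled as wild type, of strain 129, male and 10 weeks old, and all 15 libraries come from mice that had surgery or a biopsy at some point, so no untouched muscle is among them. The labels say neither how the MuSCs were purified nor how long after surgery samples were taken. Each library is called by its group and its mouse, for example after 11 or sham 192.

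Type I and type II interferons bind receptors on the cell surface and activate the kinases JAK1, TYK2 and JAK2. These phosphorylate transcription factors such as STAT2, which with IRF9 is part of the complex ISGF3; ISGF3 binds the interferon-stimulated response element (ISRE), and the GAS element answers mainly to type II interferon. The induced genes encode proteins that sense viral RNA, block viral entry, translation and replication, attach the ubiquitin-like protein ISG15 to targets, and in the end dampen the receptor signal itself.

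The core promoters of 6 genes are shown because they carry, or lack, the element through which ISGF3 acts. Each sequence is the 150 bases before the RefSeq start site (build GRCm38.p6), written 5′ to 3′ on the gene's own strand, with every match to the ISRE core in capitals. The core searched was GAAA, any 2 bases and GAAA again, which reads TTTC, any 2 bases and TTTC where it lies on the other strand; overlapping matches run together.
Isg15: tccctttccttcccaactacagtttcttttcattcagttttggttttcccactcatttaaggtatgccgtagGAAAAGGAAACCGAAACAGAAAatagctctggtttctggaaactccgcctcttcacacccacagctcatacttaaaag
Bst2: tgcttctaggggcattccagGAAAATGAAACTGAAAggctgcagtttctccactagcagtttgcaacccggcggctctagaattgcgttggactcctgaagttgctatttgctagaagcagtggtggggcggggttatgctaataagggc
Ifit1: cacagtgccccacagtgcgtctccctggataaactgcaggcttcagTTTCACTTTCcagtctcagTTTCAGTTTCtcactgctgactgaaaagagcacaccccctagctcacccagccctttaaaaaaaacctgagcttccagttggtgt
Gbp3: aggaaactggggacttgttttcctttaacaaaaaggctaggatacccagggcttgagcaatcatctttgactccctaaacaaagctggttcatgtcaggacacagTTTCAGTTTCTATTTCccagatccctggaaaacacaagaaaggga
Irf7: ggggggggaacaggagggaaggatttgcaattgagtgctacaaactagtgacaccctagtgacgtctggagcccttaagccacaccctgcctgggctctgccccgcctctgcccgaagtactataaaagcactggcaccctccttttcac
Samhd1: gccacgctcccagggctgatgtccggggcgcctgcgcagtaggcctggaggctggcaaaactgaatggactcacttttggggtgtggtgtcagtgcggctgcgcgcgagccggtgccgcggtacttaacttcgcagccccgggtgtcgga
The Isg15 stretch is chr4:156200819-156200968 on the minus strand, and its 3 overlapping matches start at positions -78, -72 and -66 from the start site. Bst2 lies at chr8:71537473-71537622 on the minus strand, with matches at -130 and -124. For Ifit1 the stretch is chr19:34640739-34640888 on the plus strand, with matches on the other strand at -104 and -85, and for Gbp3 it is chr3:142559894-142560043 on the plus strand (the first of 2 listed starts), with matches on the other strand at -45 and -39. The Irf7 stretch (chr7:141266425-141266574 on the minus strand) and the Samhd1 stretch (chr2:157135097-157135246 on the minus strand) hold no match to these letters. Of the 37 genes, 28 had a promoter in the RefSeq table, which covers 250 bases before and 50 bases after each start. Within those 300 bases 14 of 28 genes (50%) held the ISRE core on either strand, against 3.99% of the 27025 genes with a promoter in the table. The GAS letters TTCNNNGAA, which read the same on both strands, were present in 7 of 28 (25%), against 9.55% of all genes. A match is a string of letters and not a measured binding site.

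Sequencing depth was 17.1 M to 23 M estimated counts per library (M, mega). Several libraries go against their labels or stand apart. The female-specific RNA Xist was present in 14 of 15 libraries while 4 Y-linked genes reached at most 0.16 TPM in any of them, which goes against the label of male. In the deposited table the MuSC libraries carry names of 2 forms, and Xist followed the form: it was 66.8, 44.5 and 84.1 TPM in after 5, before 5 and before 11, whose names open with the mouse number, and 8.18, 2.63 and 10.2 TPM in after 6, after 11 and before 6. The after and before libraries of mouse 11 are thus of different forms (2.63 and 84.1 TPM of Xist). After 11 also had 1.2% of its counts in mitochondrial genes, against 4.44 to 6.28% in the other 5 MuSC libraries, and 17873 genes with a count, against 18307 to 19900. In the MuSC libraries the MuSC marker Pax7 stood at 11.8 to 21.6 TPM and Myod1 at 532 to 958 TPM, while Calcr and Chodl, markers of resting MuSCs, were at 0.25 TPM or less. TPM is a level scaled for transcript length and library total, to a fixed common total. CPM is a count scaled for a library total that was adjusted by the TMM method, with no account of length.

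After transplantation, MuSCs of 1 mouse carried high levels of most of these genes and MuSCs of the other 2 mice did not. Summed over the 37 genes, the level was 94.3 TPM in after 5, 67.2 TPM in after 6 and 1579 TPM in after 11, against 97.7, 72.5 and 106 TPM in before 5, before 6 and before 11. After 11 was the highest of the 6 MuSC libraries for 35 of the 37 genes by CPM and for 33 by TPM; the exceptions by CPM were Ifit2 and Samhd1. Across the 13512 genes tested, after 11 was the highest library for 33.5%. Of the 35 members with at least 10 counts in after 11, 28 stood there at least 4-fold above each of the other 5 libraries by CPM, against 116 of 12804 genes in all (0.906%). No other MuSC library could pass this mark for the 35 genes that were highest in after 11, so the lack of members past it there says nothing. The share over all genes in those libraries was 0.0764 to 1.97%. The median member with 10 counts stood 5.03 higher in after 11 than the median of the other 5 on the log2 CPM scale, against 0.15 for all genes. The mark of 10 counts was set on after 11 itself, and only 14 or 15 members reached it in each other MuSC library. It thus lets in members read in after 11 alone, which raises both this median and the count of 28. In bulk RNA a change in the number of cells of a type and a change in RNA per cell cannot be told apart, and 1 library carries this pattern.

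**Figure D1:**
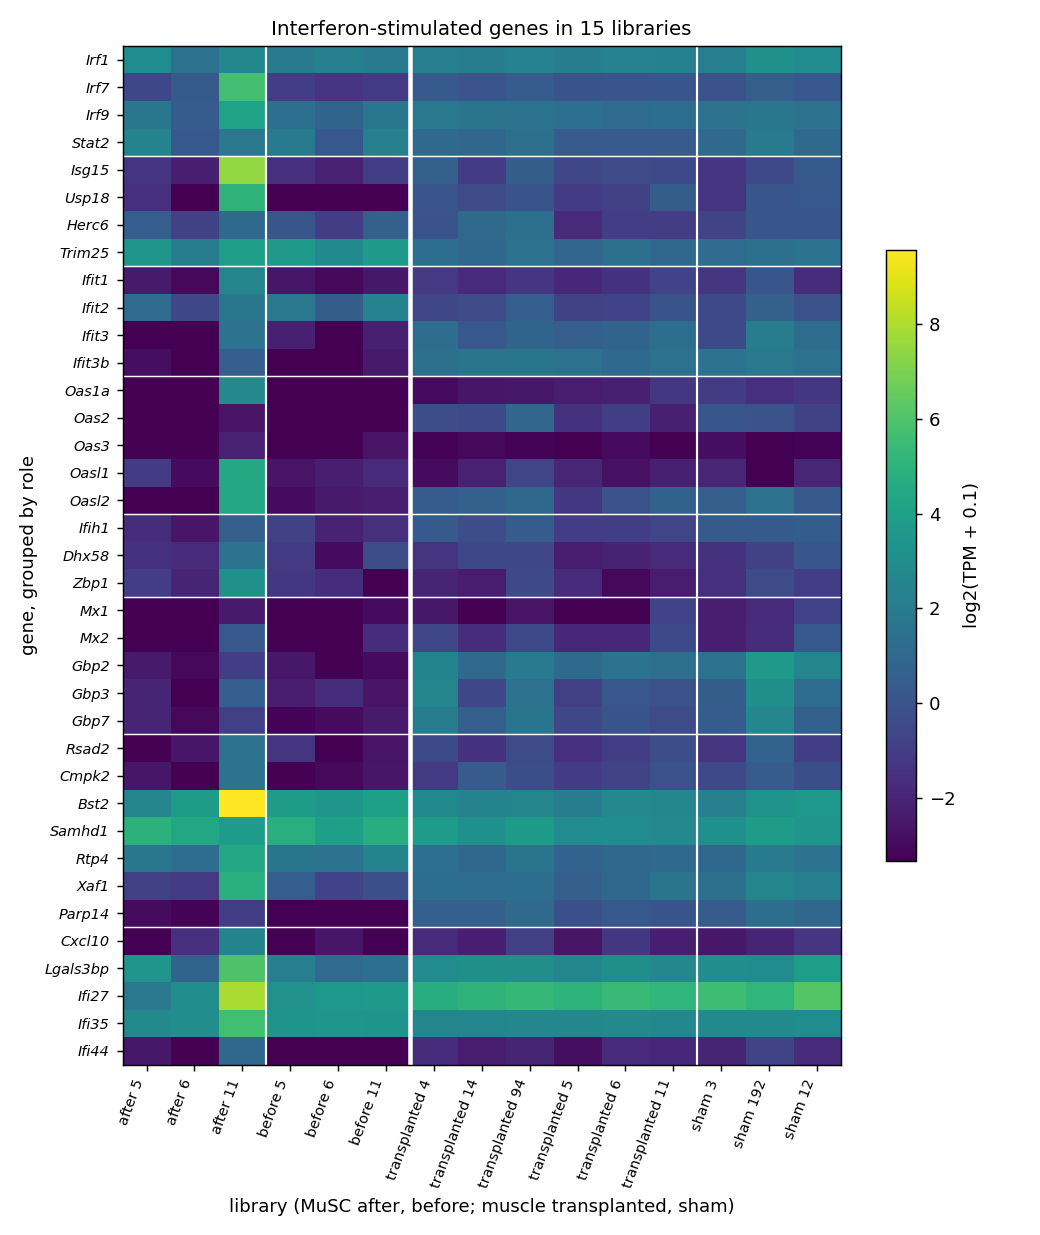
Level of each of the 37 genes (rows, grouped by role) in the 15 libraries (columns), as log2(TPM + 0.1); white lines separate MuSC after, MuSC before, transplanted muscle and sham muscle. The column of after 11 is the bright one among the MuSC libraries, with Bst2 at 756 TPM, while the muscle columns differ less from each other.

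Among the regulators, Irf7, which amplifies the type I interferon response, stood at 0.59, 1.17 and 52.6 TPM in after 5, after 6 and after 11, against 0.42, 0.29 and 0.35 TPM in before 5, before 6 and before 11. All after libraries lay above all before libraries, with after 11 far above the rest. In edgeR's quasi-likelihood test the log2 difference was 6.12 ± 1.98 (SE, n = 3 each), with a Benjamini-Hochberg adjusted p of 0.873. Irf9, the DNA-binding part of ISGF3, stood at 3.21, 1.24 and 17.5 TPM after transplantation, against 2.55, 1.68 and 3.20 TPM before it. After 11 alone stood clear above the other libraries, and the fitted difference was 1.91 ± 0.98. Stat2, the ISGF3 subunit that carries the activation domain, had 5.38, 1.05 and 3.50 TPM after, against 3.91, 1.07 and 4.80 TPM before. Its groups overlapped (0.36 ± 0.52), and so did those of Irf1, a transcription factor induced by both interferon types, at 7.61, 2.78 and 6.39 TPM after and 3.67, 4.75 and 3.95 TPM before (0.52 ± 0.48). By CPM, which takes no account of transcript length and carries the TMM adjustment, after 11 was the highest library for Stat2 and Irf1 too. For Stat2 that rests on the TMM adjustment, as after 5 held 254 counts of 18.1 M and after 11 held 231 of 19.3 M. Scaled for depth alone, after 11 had 1.38 and 1.84 times the other 5 pooled for Stat2 and Irf1.

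The ISG15 system was uneven, with Isg15 and Usp18 far higher in after 11 and its ligases little different. Isg15, the ubiquitin-like modifier, had 0.30, 0.11 and 178 TPM in after 5, after 6 and after 11, against 0.25, 0.13 and 0.42 TPM in before 5, before 6 and before 11. After 5 and after 6 lay within or below the range of the before libraries, so the groups overlapped, and Isg15 was gene 710 by level in after 11. With 1615 counts there and 9 in the other 5 libraries together, the ratio scaled for depth was 895 (exact 95% interval 470 to 1962, counting error only). Usp18, the protease that removes ISG15 from proteins and blocks the type I receptor, had 0.23, 0 and 32.9 TPM after transplantation, against 0 TPM in each of the 3 libraries before it. It had 970 counts in after 11, 5 in after 5 and none in the other 4. Herc6 and Trim25, ligases for ISG15, differed far less: Herc6 had 1.34, 0.49 and 2 TPM after, against 1.01, 0.40 and 1.46 TPM before. For Trim25 the values were 10.4, 4.37 and 14.9 TPM after, against 12, 7.18 and 12 TPM before. Both groups overlapped in each of these 2 genes, with fitted log2 differences of 0.41 and 0.19.

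The IFIT proteins bind viral RNA and hold up its translation. Ifit1 stood at 0.09, 0.02 and 5.81 TPM after transplantation, against 0.07, 0.02 and 0.08 TPM before it. For Ifit3 the level was 0, 0 and 2.94 TPM after, against 0.12, 0 and 0.12 TPM before. After 11 alone held more than 3 counts of either gene, with 270 and 85. Ifit3b, a near copy of Ifit3, had 46 counts in after 11 and 3 in the other 5 libraries together; the labels do not say how reads were shared between the copies, so the split between them is uncertain. Ifit2 did not follow its neighbours. It stood at 2.18, 0.57 and 3.27 TPM after, against 3.30, 1.31 and 5.09 TPM before, and was lower after than before within each of the 3 mice (fitted difference -0.40 ± 0.68, adjusted p 0.876 by edgeR). Its groups overlapped, and before 11 held its highest value.

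Oligoadenylate synthetases make the messenger that activates RNase L, which cuts RNA. Oas1a had 212 counts in after 11 (6.67 TPM) and none in the other 5 libraries, so it was at least 353-fold higher there, against a floor of 3 counts over those 5, or at least 284-fold with the counting error of the 212 counts. Oasl2, an OAS-like protein that acts in RNA sensing, stood at 0, 0 and 20.1 TPM after transplantation, against 0.03, 0.09 and 0.11 TPM before it. After 11 was alone in showing it, with 728 counts against 3 in all the others, a ratio of 1211 (interval 413 to 5885). Oasl1, which in mice restrains translation of Irf7, had 0.37, 0.03 and 21.7 TPM after, against 0.06, 0.11 and 0.19 TPM before. Oas2 and Oas3, in contrast, were near 0, with only 4 and 10 counts in after 11, against 0 and 4 in the other 5 together. The exact intervals of their ratios began at 3.29 and 3.60. These cover counting error only, and the values rest on few reads.

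The RNA and nucleic acid sensors stood higher in after 11 as well. Zbp1, a sensor of Z-form nucleic acid that can trigger necroptosis, had 0.40, 0.15 and 8.83 TPM after transplantation, against 0.33, 0.22 and 0 TPM before it. In counts that is 3, 3 and 150 after, against 3, 2 and 0 before, so outside after 11 the gene rests on a handful of reads. Ifih1, which encodes the double-stranded RNA sensor MDA5, had 112 counts in after 11 and 70 in the other 5 together, a ratio of 7.98 (interval 5.87 to 10.9). Dhx58, which encodes its partner LGP2, had 103 and 17 (ratio 30.2, interval 18 to 53.9).

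The 5 members that are interferon-induced GTPases, proteins that act against viral nucleocapsids and the vacuoles of intracellular pathogens, were at most 1.34 TPM even in after 11. Gbp2 had 0.09, 0.02 and 0.43 TPM after transplantation, against 0.08, 0 and 0.03 TPM before it. Mx1, known in mice for blocking influenza virus, had 0, 0 and 0.09 TPM after, against 0, 0 and 0.03 TPM before, with 3 counts in after 11. After 11 was the highest library for both, but at these levels Mx1 cannot be distinguished from 0. Gbp3, Gbp7 and Mx2 had 62, 43 and 38 counts there, against 11, 15 and 1 in the other 5 together. Together the 5 reached 3.35 TPM in after 11, against 48.7 TPM for the 5 OAS genes and 228 TPM for the 4 genes of the ISG15 system.

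Among the other antiviral genes was the most abundant member. Bst2 encodes tetherin, which holds budding virus at the cell surface, and stood at 5.74, 13.3 and 756 TPM in after 5, after 6 and after 11, against 13.1, 11.2 and 15.3 TPM in before 5, before 6 and before 11. After 5 was the lowest library of the 6 and after 11 the highest, where Bst2 was gene 222 of all by level. The fitted log2 difference was 4.74 ± 1.83 (SE, n = 3 each; adjusted p 0.873 by edgeR). Rsad2, which encodes viperin and makes a chain-terminating nucleotide, had 0, 0.07 and 2.69 TPM after, against 0.29, 0 and 0.06 TPM before. Its genomic neighbour Cmpk2, a nucleotide kinase, had 166 counts in after 11 and 7 in the other 5. Xaf1, a pro-apoptotic gene, had 0.44, 0.35 and 29.3 TPM after, against 1.32, 0.50 and 0.79 TPM before, which gave 3.92 ± 1.57. By TPM after 5 and after 6 were the lowest of the 6, while by CPM after 6 was above before 6. Samhd1, which depletes deoxynucleotides, was already present in every library, at 30.6, 21.0 and 14.0 TPM after and 27.6, 15.4 and 25.9 TPM before. After 11 was its lowest library by TPM, and its fitted difference was 0.02 ± 0.26.

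Of the secreted and remaining members, Cxcl10, a chemokine that draws activated T cells, had 0, 0.23 and 5.53 TPM after transplantation, against 0, 0.07 and 0 TPM before it. Lgals3bp, a secreted galectin-binding glycoprotein, had 10.6, 1.68 and 61.7 TPM after, against 4.45, 2.15 and 2.54 TPM before. After 6 was the lowest Lgals3bp library and after 5 the second highest, and the fitted difference was 3.55 ± 1.25. Ifi27 had 3.46, 7.87 and 247 TPM after, against 9.07, 11.6 and 12.5 TPM before. Here after 5 and after 6 were both below every before library (3.54 ± 1.59). Ifi35 was more even outside after 11, at 6.98, 8.01 and 50.1 TPM after and 9.98, 11.0 and 10.1 TPM before, and Ifi44 had 99 counts in after 11 and 3 in the other 5.

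No member passed the test of after against before. Only 15 of the 37 passed the filter on low counts, which needs expression in 3 libraries and so drops a gene read in after 11 alone; Isg15, Usp18, Ifit1 and all 5 OAS genes were among the 22 left out. Of the 15, 14 had a positive difference and Ifit2 a negative one, with a median of 1.66 against 0.02 over all 13512 genes tested, of which 48.6% were negative. Neither any member nor any other gene passed an adjusted p of 0.05 in edgeR (0% called), and 305 genes (2.26%) had an unadjusted p under 0.05, among them Irf7, Bst2, Xaf1 and Lgals3bp. DESeq2 called 16 genes (0.118%) and no member. Irf7 was the only tested member whose groups did not overlap, a pattern seen for 3.35% of tested genes; of the members left out, Zbp1 and Parp14 did not overlap by CPM either. Without after 11 the median of the members tested was -0.23, and without both libraries of mouse 11 it was -0.14.

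**Figure D2:**
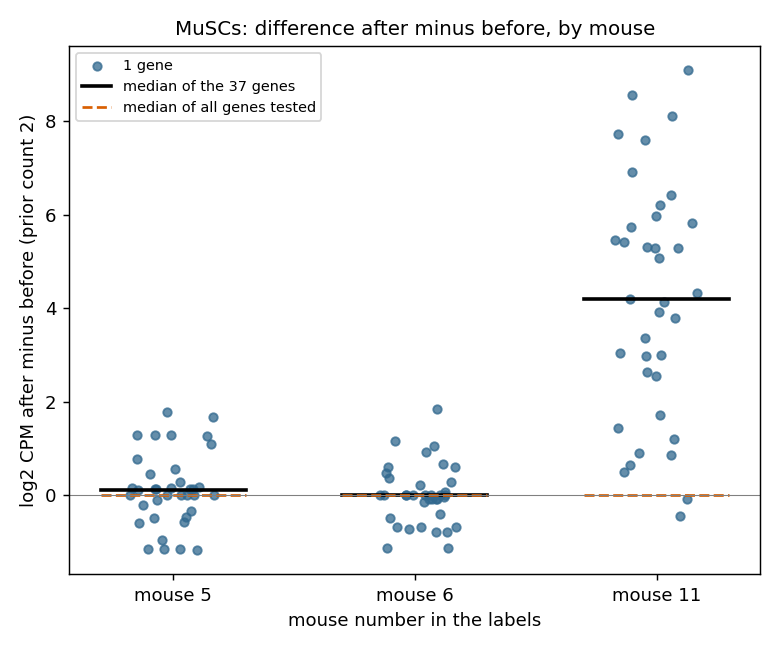
Difference after minus before on the log2 CPM scale (vertical axis) within each mouse, 1 point per gene for the 37 genes; the black bar is their median and the dashed bar that of all genes tested. The medians are 0.11 in mouse 5, 0.00 in mouse 6 and 4.20 in mouse 11, where 35 of the 37 genes lie above 0.

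Taken mouse by mouse, the 37 genes were near balance in mice 5 and 6 and higher after transplantation in mouse 11. In mouse 5, 19 of the 37 genes were higher after than before and 12 lower, with a median log2 CPM difference of 0.11. In mouse 6, 12 were higher and 16 lower (median 0.00), and in mouse 11, 35 were higher and 2 lower (median 4.20). Many of these genes have almost no reads outside after 11. Over the 15 that passed the filter, the medians were -0.22 in mouse 5 (7 positive), -0.15 in mouse 6 (6 positive) and 2.99 in mouse 11 (13 positive). The mouse 11 pair also differs in the form of the library name and in Xist, as given above, and the part this plays was not tested. Over the same 15 members, the median was 2.42 within the 3 libraries of the after 11 form (after 6 and after 11 against before 6, a lone library) and -0.08 within the others (after 5, also alone, against before 5 and before 11). With no filter on low counts and the mouse as a block, an alternative added after the data were seen, Usp18 was the only member called by edgeR (11.37 ± 1.38, adjusted p 0.0168), beside 11 of 24645 genes in all (0.0446%). With no filter and no block its adjusted p was 0.802, and it was not called without after 11 (4.39).

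**Figure D3:**
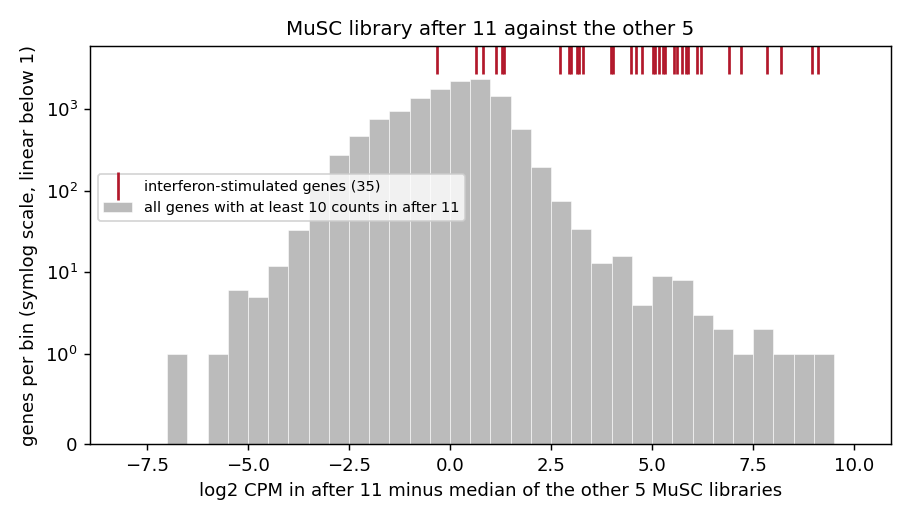
Distribution over all 12804 genes with at least 10 counts in after 11 (grey bars, symlog count axis) of the log2 CPM in after 11 minus the median of the other 5 MuSC libraries; red ticks mark the 35 interferon-stimulated genes among them. The bulk of genes lies near the median of 0.15 while the members have a median of 5.03 and run from Samhd1 at -0.33 to Usp18 at 9.10. The mark of 10 counts was set on after 11, so genes read there alone are let in.

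Genes with and without a promoter match both stood high. In after 11 the 14 genes with an ISRE core in the window stood a median of 5.15 above the other libraries (log2 CPM), with 12 of 14 at least 4-fold above each of them. The 14 genes with a promoter and no core had a median of 4.17, with 9 of 14 past that mark, and the 9 with no promoter in the table had 4.59, with 7 of 9. Irf7, whose window above has no match, was among the highest at 7.20, while Samhd1, which has none either, was the lowest at -0.33. Of the genes whose matches are printed above, Isg15 (8.97), Bst2 (6.20) and Ifit1 (6.10) lie above the median of the 14 and Gbp3 (4.03) lies below it. The range of the 14 begins at 0.64 with Stat2.

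The rest of the pathway was followed through lists of ligands, receptors, sensors, inhibitors and other induced genes. None of 21 interferon ligand genes had a read in after 11, and 18 of them had none in any MuSC library. The receptor genes did not share the pattern of the 37: Ifnar1 was 8.11 TPM in after 11 and 10.7 to 18.9 TPM in the others, and Ifnar2 was 14.1 TPM in after 11 and 13.0 to 19.0 TPM in the others. Jak1 and Jak2 followed the form of the library name instead, with Jak2 at 0.92 to 2.22 TPM in after 6, after 11 and before 6 and 10.2 to 11.1 TPM in the other 3. Of the sensing pathway, Rigi, which encodes the RNA sensor RIG-I, was 7.67 TPM in after 11 and 0.55 to 2.04 TPM in the others (2.52 ± 1.08, adjusted p 0.873 by edgeR). Adar, the RNA-editing enzyme that limits such sensing, was 16 TPM there and 3.65 to 6.50 TPM in the others. The RNA sensing adaptor Mavs (21.5 TPM) and the feedback inhibitor Socs1 (5.05 TPM) lay within the range of the other libraries. No gene of these lists was called; the positive counts were 8 of 11 sensing genes, 6 of 8 inhibitors and 23 of 31 of the other interferon-stimulated genes. That last list of 46 summed to 2457 TPM in after 11, against 598 to 842 TPM in the other 5, and Ifitm3, which blocks viral entry, made up much of it with 1602 TPM, against 74.4 to 252 TPM.

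Markers of other cells were read beside this pattern. The pan-leukocyte gene Ptprc and the macrophage genes Adgre1, C1qa, C1qb, C1qc and Fcgr1 had a level of 0 in all 6 MuSC libraries. Other genes of these 2 lists had reads. Laptm5 was 0.95, 22.5 and 5.72 TPM in after 5, after 6 and after 11, against 1.60, 0.84 and 0.56 TPM before (3.76 ± 1.15, adjusted p 0.873 by edgeR). Coro1a was 1.22 TPM in after 11 and at most 0.95 TPM in the others. Cd53, Cd68 and Cd14 were 3.59, 4.85 and 2.24 TPM there, against 0.39 to 5.40, 2.02 to 5.14 and 0.97 to 6.67 TPM. The 12 macrophage markers summed to 7.34 TPM in after 11, with 7 of them at 0, against 3.47 to 10.4 TPM in the other 5, and no macrophage marker was highest in after 11. Lymphocyte and natural killer markers summed to at most 0.24 TPM in any of the 6. Of 6 dendritic cell markers, 4 were at 0 in after 11 and the sum was 4.93 TPM there, against 8.27 to 32.6 TPM. The 5 pan-leukocyte markers summed to 10.5 TPM in after 11 and 3.07 to 23.2 TPM in the others. Endothelial markers summed to 0.77 TPM there and 0.39 to 2.17 TPM in the others, and fibroadipogenic markers to 50.4 TPM there and 44.4 to 237 TPM. MuSC markers were 1522 TPM in after 11, inside the range of 947 to 1568 TPM of the other 5. What did set after 11 apart was muscle fibre RNA, at 943 TPM over 10 myofibre markers, against 4043 to 12504 TPM; its part in the result was not tested.

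**Figure D4:**
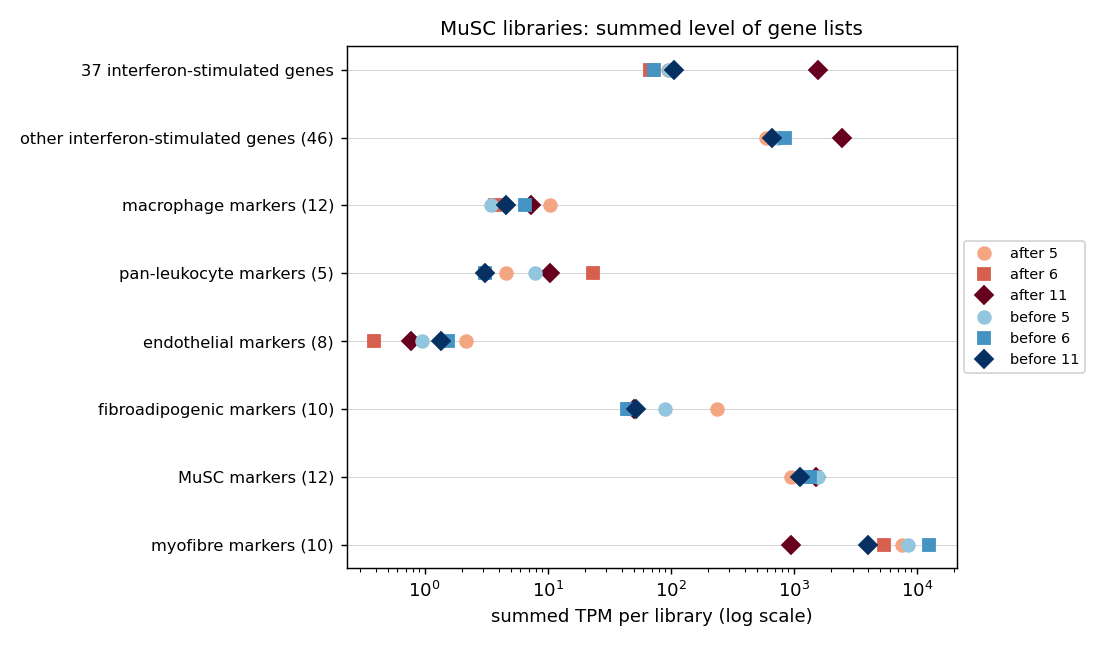
Summed level of each gene list (rows, number of genes in brackets) in the 6 MuSC libraries, in TPM on a log axis; warm colours are after transplantation and blue ones before, and the symbol gives the mouse. After 11 lies at 1579 TPM for the 37 genes, inside the range of the other 5 for macrophage and MuSC markers, and lowest for myofibre markers at 943 TPM.

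In quadriceps muscle the 37 genes showed no such library and no call. Transplanted and sham muscle were compared with 6 and 3 libraries, with the deposited table as a term because the muscle data came as a table with 2 shams (transplanted 4, 14 and 94, sham 3 and 192) and a table with 1 sham (transplanted 5, 6 and 11, sham 12). Of the 37, 29 passed the filter, and 25 of these had a negative difference (lower in transplanted muscle), against 50.1% of all 14375 genes tested. Their median was -0.27 on the log2 scale, against 0.00 for all genes. None passed an adjusted p of 0.05 in edgeR, where the background was 0% called; 1018 genes (7.08%) and 4 members had an unadjusted p under 0.05. DESeq2 called 6 genes (0.0417%) and no member. No member's groups were separate, which held for 0.96% of genes on the lower side and 1.15% on the higher side. Within the table with 2 shams the median of the members was -0.18 and within the table with 1 sham it was -0.33. Muscle of mouse 11, whose MuSCs stood high, was the highest library for 3 of the 29 members, while 15.7% of all genes peak there.

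Ifi27 had the smallest p among the members. It stood at 25.8 TPM at the lowest, 34.5 TPM at the median and 43.0 TPM at the highest of the 6 transplanted libraries, against 46.8, 36.2 and 69.1 TPM in sham 3, sham 192 and sham 12. Transplanted 6 and 94 reached above sham 192, so the groups overlapped, and the difference was -0.40 ± 0.10 (SE, n = 6 and 3; adjusted p 0.686 by edgeR's test). For Irf1 the transplanted range was 4.21 to 5.20 TPM with a median of 4.71 TPM, against 4.56, 8.75 and 7.37 TPM in sham 3, 192 and 12. Sham 3 fell inside the transplanted range and the other shams above it (-0.45 ± 0.18). Xaf1 ran from 1.37 to 2.96 TPM with a median of 2.37 TPM in transplanted muscle, against 2.63, 5.78 and 4.67 TPM in the shams. Only transplanted 11 overlapped sham 3 (-0.55 ± 0.23). Gbp2 spread widest of the 4, from 2.08 to 5.46 TPM around a median of 2.75 TPM, against 2.76, 11.9 and 5.66 TPM in the shams (-0.83 ± 0.37), with sham 192 far above the rest.

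The shams differed among themselves in most of these genes. Sham 192 held the highest value for 15 of the 29 tested members, against 9.83% of all genes, and exceeded all 3 transplanted libraries of its own table for 20 of 29 (21.4% of all genes). Sham 12 exceeded its 3 for 15 of 29 (32.4% of all genes). Sham 3 exceeded its 3 transplanted libraries for 3 of 29 (26.1%) and lay below all of them for 10 (27.9%). Without sham 192 the median of the members was -0.05. Among members with a fixed place in the text, Ifit3 had 1.04 to 2.38 TPM in transplanted muscle with a median of 1.65 TPM, against 0.64, 4.35 and 2.24 TPM in sham 3, 192 and 12. Bst2 had 4.33 to 6.94 TPM with a median of 5.93 TPM, against 4.83, 9.62 and 11.7 TPM. Stat2 had 1.2 to 2.61 TPM with a median of 1.51 TPM, against 2.07, 3.91 and 2.09 TPM. For each of these 3 genes sham 3 was among or below the transplanted libraries while sham 192 was above all 6.

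**Figure D5:**
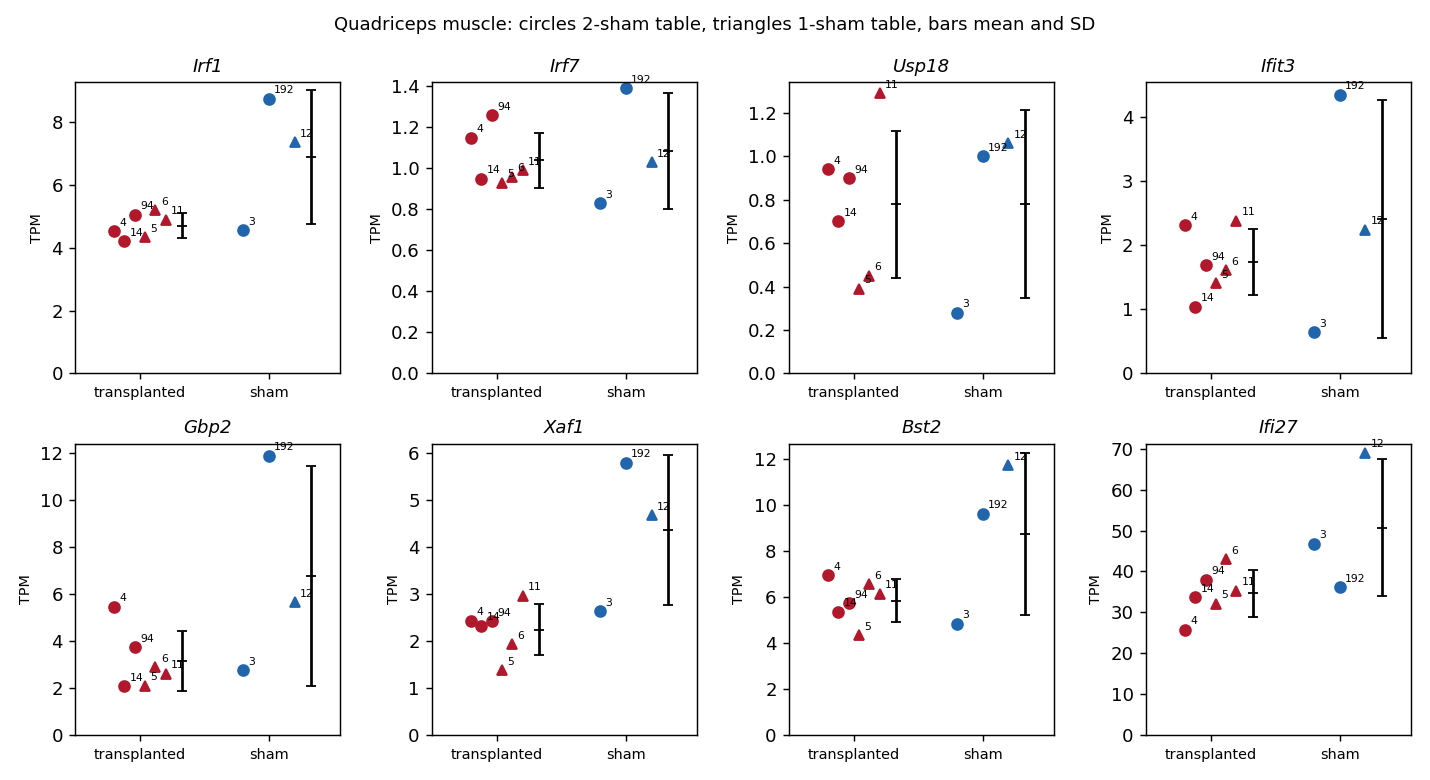
Level in TPM of 8 members in quadriceps libraries, transplanted (red) left of sham (blue); circles are libraries of the table with 2 shams, triangles those of the table with 1, small numbers the mice, and bars the mean with SD (n = 6 and 3). Sham 192 or sham 12 is the highest library for 7 of the 8 genes, and sham 3 lies inside or below the transplanted range for all of them but Ifi27.

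Several members showed no side at all in muscle. Irf7 ran from 0.93 to 1.26 TPM with a median of 0.98 TPM in transplanted libraries, against 0.83, 1.39 and 1.03 TPM in the shams (-0.03 ± 0.27). Irf9 ran from 2.19 to 3.47 TPM around 2.68 TPM, against 2.72, 3.18 and 2.81 TPM (0.05 ± 0.13). Usp18 ran from 0.39 to 1.29 TPM around 0.80 TPM, against 0.28, 1 and 1.06 TPM (0.11 ± 0.45), and Ifit3b differed by 0.05 ± 0.18. Irf9, Usp18, Ifit3b and Rtp4 (0.04 ± 0.27) were the 4 tested members with a positive difference in muscle. Isg15, below the filter, had 0.37 to 1.44 TPM with a median of 0.64 TPM in transplanted libraries, against 0.29, 0.62 and 1.16 TPM in the shams. Lgals3bp, Oasl2, Rsad2 and Ifit1 had differences of -0.20 ± 0.15, -0.07 ± 0.55, -0.42 ± 0.50 and -0.47 ± 0.56, and Zbp1, Mx1 and Cxcl10 were at most 0.68, 0.50 and 0.45 TPM in any muscle library and were not tested.

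The surrounding pathway in muscle had the same leaning and no call. All 21 ligand genes were at 0 in every muscle library. Of the other interferon-stimulated genes, 38 of 43 tested had a negative difference, and Rnf213, a large ubiquitin ligase active against intracellular pathogens, had the smallest p (-0.32 ± 0.10). Ifnar2 differed by -0.48 ± 0.20 and Rigi by -0.44 ± 0.18 (adjusted p 0.686 by edgeR for each of these 3). The sensing genes were split, with 6 of 11 negative, as were the inhibitors (4 of 8). Markers of some other cells had the same sign and others did not: 11 of 11 tested macrophage markers, 4 of 4 pan-leukocyte markers and 8 of 10 fibroadipogenic markers had a negative difference, as did 4 of 8 endothelial and 0 of 10 myofibre markers, none of them called. The immediate-early genes Egr1 and Fos had differences of -2.33 ± 0.42 and -1.85 ± 0.41 (adjusted p 0.535 and 0.686 by edgeR). Macrophage markers summed to 39.0 to 64.9 TPM in transplanted muscle, against 48.5, 46.9 and 100 TPM in sham 3, 192 and 12, so sham 192, with the most members at their peak, was not high in them. Their part in the members' differences was not tested.

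By mean level, different members led in each tissue. The order by mean TPM in MuSCs after transplantation was set by after 11, with Bst2 (258 ± 431, SD, n = 3), Ifi27 (86.2 ± 140) and Isg15 (59.4 ± 103) at the top and SDs larger than the means. Before transplantation Samhd1 (23 ± 6.61), Bst2 (13.2 ± 2.08), Ifi27 (11.1 ± 1.78), Trim25 (10.4 ± 2.77) and Ifi35 (10.4 ± 0.56) led, and Ifi27, Trim25 and Ifi35, neighbours in that order, did not differ beyond their spread. In transplanted muscle Ifi27 (34.6 ± 5.79, n = 6) stood above Samhd1 (9.57 ± 3.17), Lgals3bp (7.41 ± 1.04), Ifi35 (6.23 ± 0.25) and Bst2 (5.84 ± 0.93). Ifi35 and Bst2 did not differ beyond their spread. Sham muscle had Ifi27 (50.7 ± 16.8, n = 3) first too, followed by Samhd1 (11.1 ± 2.70), Lgals3bp (9.82 ± 3.92), Bst2 (8.73 ± 3.54) and Ifi35 (7.19 ± 0.43), which lay within the spread of their neighbours. MuSC and muscle tables were made separately, so these levels are set side by side without a test.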

How the data were processed

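Libraries were assigned to groups by the labels, with muscle groups taken from the titles because the treatment entry of the shams names transplantation. Per the file headers, the authors deposited estimated counts and TPM for each gene, in 3 tables; no label or header names the aligner, quantifier or annotation, and GRCm38 and mm10 are listed in the submitters' processing notes. Because gene coordinates in the tables do not match GRCm38, only RefSeq promoter coordinates are printed. A library in 3 value columns matched no label and was not used. Estimated counts as deposited were rounded and tested with edgeR 4.0.16 (R 4.3.3) by its quasi-likelihood test, 2-sided, with TMM scaling, filterByExpr (minimum count 10) and Benjamini-Hochberg adjustment over all genes tested, threshold 0.05. The MuSC fit had 3 after and 3 before libraries and no covariate; the muscle fit had 6 transplanted and 3 sham libraries, and a term for the table. The standard error is the log2 difference over the root of F. TPM values are the deposited ones. CPM and log2 CPM carried TMM scaling, and log2 CPM used a prior count of 2. DESeq2 1.42.0, other scaling, no filter, the mouse as a block, subsets of libraries and leaving out each library were the alternatives. Ratio intervals and the floor of 3 counts cover counting error only. Both fits were tested on simulated counts with the same dispersion for every gene and no library that stands apart. After 11 does stand apart, so that check says nothing on how the MuSC fit handles it. The labels number the mice, so libraries were taken as separate animals within a group and as paired between the MuSC groups; deviations from the group means correlated at 0.30, 0.36 and -0.40 for mice 5, 6 and 11, so the pairing rests on the labels. No 2 libraries of a group agreed within sampling noise. The genes described in full are 16 picked by role, any gene called, the 2 highest and 2 lowest by signed F in each comparison and up to 3 genes per pathway list by p. The 37 genes and all lists were chosen with earlier results of these data known, and set tests were not run.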

Additional observations from a re-analysis of the deposited data

Results flagged for a closer look

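In transplanted muscle, 5 low-level members had 1 library whose gap to the nearest of the other 5, set against the range of the 6, exceeded Dixon's 95% critical value. Oas1a stood at 0.33 TPM and Mx1 at 0.5 TPM in transplanted 11. Oas2 stood at 1.83 TPM, Oasl1 at 0.55 TPM and Zbp1 at 0.62 TPM in transplanted 94. Chance alone marks about 1 in 20 such groups, and 37 genes were screened. These genes were at or under 2 TPM in all transplanted libraries, where a few reads move the value. The groups of 3 libraries, which include MuSCs after transplantation, are too small for this screen, so after 11 could not be marked by it.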

How the results depend on the processing

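With the mouse number as a replicate block, no gene passed in MuSCs and the members' median was 0.62, against 1.66; the block ended no call, and only without the filter did it add one, Usp18 (1 member, 11 genes in all). The MuSC count of 0 genes became 16 in DESeq2, 43 within the libraries of the after 5 form and 85 with no filter and without after 11. The members' median was 3.78 with no filter, -0.078 within the after 5 form (15 members), 5.27 within the after 6 form (34 members, so not the same genes; 2.42 over the 15), -0.14 without both libraries of mouse 11, -0.032 with no filter and without after 11, and -0.23 to 2.18 when 1 library was left out. Reversed in MuSCs were Bst2 (-1.35 within the after 5 form, -0.20 without mouse 11, -0.24 with no filter and without after 11, and -0.23 to 5.31 with 1 library left out), Irf9 (-0.016, -0.14, -0.25 and -0.25 to 2.41 in the same order), Irf1 (-0.037 without mouse 11) and Ifit2 (0.54 within the after 6 form, -1.29 to 0.070 with 1 library left out, positive without after 6 or before 11).

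The muscle count of 0 genes became 12 with no filter, 6 in DESeq2, 1 and 41 within the tables with 2 shams and 1 sham, and 0 to 4 when 1 library was left out. No member was called in any of these. Reversed within the table with 1 sham were Ifit1 (0.96), Ifit3 (0.086), Irf7 (0.037), Oasl2 (0.082), Rsad2 (0.25) and Usp18 (-0.26), and within the table with 2 shams Ifit3b (-0.10), Irf9 (-0.025) and Lgals3bp (0.082). With 1 library left out, Ifit1 ran from -1.13 to 0.36, Ifit3 from -0.67 to 0.58 and Rsad2 from -0.78 to 0.52, each positive without sham 192. Irf7 ran from -0.12 to 0.059 and Oasl2 from -0.40 to 0.48, positive without sham 192, transplanted 14 or transplanted 5. Usp18 ran from -0.24 to 0.41, negative without sham 3 or transplanted 11. Ifit3b ran from -0.096 to 0.13, Irf9 from -0.019 to 0.094 and Lgals3bp from -0.33 to 0.086, each reversed without sham 12 and Ifit3b also without transplanted 11. The causes were not tested. The 22 members left out in MuSCs had too few libraries with reads for the filter, and 3 libraries a group limit the MuSC test.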

Other observations

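After 11 held further genes at high level that belong to none of the lists above. Of the 116 genes at least 4-fold above each of the other 5 MuSC libraries there, 28 were members, 12 were on the list of other interferon-stimulated genes and 74 were on no list. None was a macrophage, leukocyte, endothelial, fibroadipogenic or MuSC marker of the lists. The genes named next were chosen after their values were seen. The chemokines Ccl5 and Cxcl1 stood at 82.5 TPM and 129 TPM in after 11, against 0 to 0.94 TPM and 0.52 to 8.98 TPM in the other 5. Psmb8 and Psmb9, subunits of the immunoproteasome, were at 35.6 and 6.48 TPM there, against 0.77 to 3.56 and 0.25 to 1.35 TPM. Apol9a and Apol9b were at 77.1 and 97.0 TPM, against at most 8.07 and 15 TPM. Cd40, a costimulatory receptor, had 7.44 TPM, against 0.33 to 1.13 TPM, and Tnf 1.22 TPM, against at most 0.04 TPM. Odc1, the first enzyme of polyamine synthesis, stood at 1423 TPM, against 232 to 391 TPM.

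The guanylate-binding proteins were split in MuSCs. Gbp2, Gbp3 and Gbp7 were at least 4-fold above every other library in after 11, and Gbp5 was at 0.21 TPM there, against at most 0.02 TPM, all at low level. Gbp4, Gbp8 and Gbp9, induced GTPases related to Gbp2, had 14.1, 7.11 and 8.38 TPM in after 11, inside the ranges of 1.96 to 19.0, 3.05 to 19.7 and 3.38 to 35.7 TPM of the other 5. The related GTPases Irgm1, Irgm2 and Igtp stood above the others there, at 17.2, 3.63 and 6.34 TPM, against at most 6.46, 0.38 and 0.20 TPM. Read sharing between near copies in these families makes the split among them uncertain.

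In muscle, Gbp2, Gbp3 and Gbp7 were high in the same libraries of the table with 2 shams. Gbp3 had 5.78, 0.60 and 2.83 TPM in transplanted 4, 14 and 94, against 1.29 and 8.48 TPM in sham 3 and sham 192. Gbp7 had 4.18, 1.37 and 3.15 TPM there, against 1.25 and 6.05 TPM, so transplanted 4 and sham 192 stood above the rest whatever their group.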
